A study of Mus musculus with 12 samples.

Results

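Tetraspanins are small membrane proteins that cross the membrane in 4 places and gather integrins, proteases and other partners into patches of the cell surface. The family was followed here in cells of the gastrulating mouse embryo. Its members were all genes named Tspan followed by a number, together with Cd9, Cd37, Cd53, Cd63, Cd81, Cd82 and Cd151. The array's naming gave 27 such genes of 27548 gene names, measured by 39 of 41174 probes. The family was picked for the patterns of Tspan7 and Tspan14 over these same samples, so the values of those 2 genes are a description and carry no p. The other 25 members were tested.

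The samples came from CD-1 embryos at embryonic day 7.5, pooled from 25 litters (about 300 embryos). The cells were sorted by Endoglin (Eng, a co-receptor for TGF-beta ligands) and Flk1 (the VEGF receptor encoded by Kdr) into cells with both proteins (Eng+Flk1+), with Flk1 alone (Eng-Flk1+), with Endoglin alone (Eng+Flk1-) and with neither (Eng-Flk1-). Each of these 4 fractions was collected in 3 samples of 3000 cells. Every sample's RNA was amplified by a global PCR method, and 250 ng of cDNA was labelled and hybridised to its own 1-colour array. All 12 samples went through the same amplification and came from a single pool of embryos, and the labels name no genetic change or treatment. The p-values therefore speak for repeated sorts from 1 pool, whose spread may be technical.

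Levels are log2 signals relative to the array's own 75th percentile, which is 0. The 3 Eng-Flk1- arrays stood apart. On the other 9 arrays 80.2% to 83.3% of spots were well above background, against 66.5% to 76.3% on these 3. Pairs of arrays within the other fractions correlated at 0.812 to 0.912 over genes, and pairs of Eng-Flk1- arrays at 0.674 to 0.720. Kdr itself averaged 1.64 in Eng+Flk1+ cells and 1.11 in Eng-Flk1+ cells, against -5.38 in Eng+Flk1- cells and -6.20 in Eng-Flk1- cells. Eng averaged 2.10 in Eng+Flk1+ cells and 0.48 in Eng+Flk1- cells, against 0.49 in Eng-Flk1+ cells and -0.49 in Eng-Flk1- cells, so its RNA did not separate Eng+Flk1- from Eng-Flk1+ cells. The arrays lay on 3 slides, each scanned once. Slide 1 held the 3 Eng-Flk1- arrays and Eng-Flk1+ replicate 1. Slide 2 held the other Eng-Flk1+ arrays with Eng+Flk1+ replicates 1 and 2, and slide 3 held Eng+Flk1+ replicate 3 with the 3 Eng+Flk1- arrays.

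As background, different tetraspanins have different partners. Members of the TspanC8 group (Tspan5, Tspan10, Tspan14, Tspan15, Tspan17 and Tspan33) carry the protease ADAM10, which cleaves Notch receptors, out of the endoplasmic reticulum to the cell surface. Cd9 and Cd81 bind the immunoglobulin proteins Igsf8 and Ptgfrn, and Cd151 binds laminin-binding integrins. Cd63 marks late endosomes and exosomes. Tspan12 takes part in Norrin signalling through Fzd4 and Lrp5 in the retinal vasculature, and Tspan18 is known as an endothelial tetraspanin that binds the calcium channel Orai1. Flk1+ mesoderm of this stage gives rise to endothelium and blood.

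The probes that carry the main patterns are shown by their first 30 bases, 5′ to 3′, since the 3 Tspan18 probes did not give the same pattern. Each probe has 60 bases, and its position is that of build mm8 in the array files.
Tspan7 (NM_019634, chrX:9753291-9753350, plus strand): ctgttacaggttgtgttgttacttccctga
Tspan14 (NM_145928, chr14:39815423-39815482, minus strand): cttctttataacttgtatctgtccttaccg
Tspan18 (NM_183180, chr2:93002663-93002722, minus strand): ttggaatttgtaaatgtcccttgcagtagg
Tspan18 (AK042573, chr2:93093745-93093804, minus strand): ttagaagcagatcatctgatacaggcacca
Tspan18 (ENSMUST00000028646, chr2:93028450-93028509, minus strand): gcctttggggcttcatttcacccaggatag

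Promoters of 3 members whose fractions separated are shown next, from 250 bases before to 50 bases after the annotated start, as RefSeq gives them in build GRCm38.p6. Tspan7 and Tspan14 were both at their lowest in Eng-Flk1- cells, and Tspan8 had its highest levels in Eng+Flk1+ cells. The capitals mark GGGCGG on either strand (CCGCCC on the opposite strand), the GC box that Sp1-family factors are known to bind. RefSeq gives a second start for Tspan14, whose window is not printed here.
Tspan7 (chrX:10484866-10485165, plus strand): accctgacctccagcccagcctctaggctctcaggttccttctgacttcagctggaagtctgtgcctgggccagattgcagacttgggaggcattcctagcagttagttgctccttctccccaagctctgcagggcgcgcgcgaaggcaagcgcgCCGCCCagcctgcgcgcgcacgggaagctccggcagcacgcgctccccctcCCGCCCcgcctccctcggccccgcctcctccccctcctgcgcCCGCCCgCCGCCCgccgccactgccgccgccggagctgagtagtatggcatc
Tspan14 (chr14:40966847-40967146, minus strand): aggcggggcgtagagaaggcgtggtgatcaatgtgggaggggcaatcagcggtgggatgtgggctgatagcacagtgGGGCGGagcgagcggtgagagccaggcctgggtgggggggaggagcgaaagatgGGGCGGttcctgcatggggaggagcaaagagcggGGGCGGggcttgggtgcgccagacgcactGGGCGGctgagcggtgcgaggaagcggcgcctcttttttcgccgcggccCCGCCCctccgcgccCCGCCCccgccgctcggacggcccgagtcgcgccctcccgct
Tspan8 (chr10:115817034-115817333, plus strand): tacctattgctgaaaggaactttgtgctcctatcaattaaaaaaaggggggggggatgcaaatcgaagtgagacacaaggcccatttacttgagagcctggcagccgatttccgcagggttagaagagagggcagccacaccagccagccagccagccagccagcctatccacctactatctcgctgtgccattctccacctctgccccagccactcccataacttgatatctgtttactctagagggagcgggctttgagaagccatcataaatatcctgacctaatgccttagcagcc

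The Tspan7 window held 4 matches to GGGCGG and the printed Tspan14 window 6, while the Tspan8 window held 0. Of the members' windows not printed, that of Tspan17, lowest in Eng+Flk1- cells, held 10 (72.0% G or C). A Tspan9 window held 6 (73.3%), and the rest held 0 to 3. At least 1 match occurred in 35.7% of 32851 RefSeq mouse promoters of the same length, and 4 or more in 5.49%. The printed windows of Tspan7 and Tspan14 were 70.3% and 72.3% G or C, the Tspan8 window 51.7%, and the median promoter 52.7%. The second Tspan14 window (chr14:40948160-40948459, minus strand) held 0 matches and was 49.0% G or C. Such matches describe the letters only. Of the 27 members, 26 had at least 1 RefSeq promoter, 36 windows in all. None of the 3 printed windows held AGATAA, the GATA motif, which 11.2% of promoters hold on either strand.

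All 27 members entered the fit, because each had a fraction in which all 3 arrays showed it well above background. On all 12 arrays this held for 21 of them, and Cd53, Cd81, Tspan4, Tspan12, Tspan14 and Tspan18 were the 6 exceptions. Tetraspanins other than Tspan7 and Tspan14 gave 0 calls of 25 in every comparison by limma at an adjusted p under 0.05, with p-values adjusted over 22720 genes. The share of all tested genes called was 0.0264% between Eng+Flk1+ and Eng-Flk1+ cells, 0.295% between Eng+Flk1+ and Eng+Flk1- cells, and 0.101% between Eng-Flk1+ and Eng+Flk1- cells. Against Eng-Flk1- cells it was 2.36% for Eng+Flk1+, 1.91% for Eng-Flk1+ and 1.45% for Eng+Flk1- cells. At shares this low, 0 calls among 25 genes is near the background. Over all 27 members the count was 1 for Eng+Flk1+, 2 for Eng-Flk1+ and 1 for Eng+Flk1- against Eng-Flk1- cells, namely Tspan14 in each and Tspan7 in Eng-Flk1+ cells, the genes whose patterns chose the family. The counts over all 27 are therefore a description and not a test.

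An unadjusted p under 0.05 was reached by 2 of the 25 members between Eng+Flk1+ and Eng-Flk1+ cells, where 4.78% of all genes reached it. The count was 3 between Eng+Flk1+ and Eng+Flk1- cells (6.59% of genes) and 4 between Eng-Flk1+ and Eng+Flk1- cells (5.37%). Against Eng-Flk1- cells it was 6 for Eng+Flk1+ (15.5%), 7 for Eng-Flk1+ (17.7%) and 2 for Eng+Flk1- cells (14.4%). The median log2 fold change of the 25 members was 0.35 between Eng+Flk1+ and Eng-Flk1+ cells, beside 0.10 over all genes. Between Eng+Flk1+ and Eng+Flk1- cells it was 0.37 beside -0.01, with 18 of the 25 members above 0 and 49.1% of all genes above 0. Between Eng-Flk1+ and Eng+Flk1- cells it was -0.12 beside -0.09, with 12 of the 25 above 0. Against Eng-Flk1- cells it was 0.16 for Eng+Flk1+ (beside -0.06 over all genes), 0.02 for Eng-Flk1+ (beside -0.13) and -0.19 for Eng+Flk1- cells (beside -0.06), with 15, 13 and 11 of the 25 above 0.

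**Figure D1:**
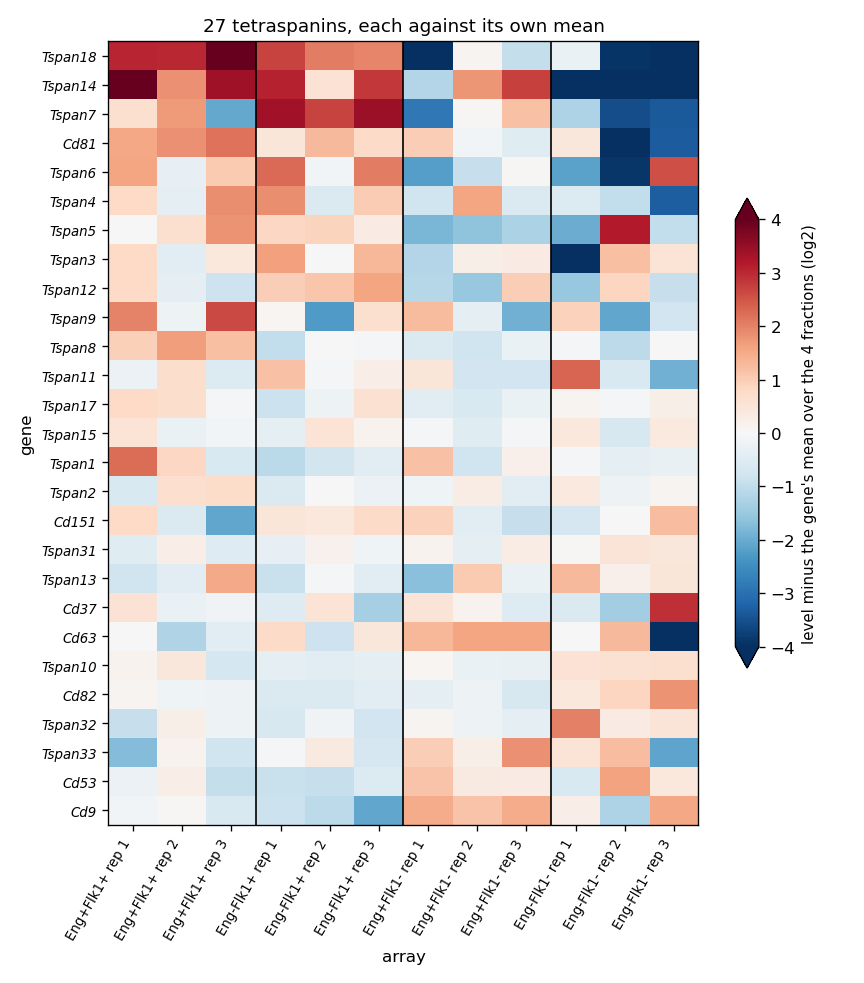
Levels of the 27 tetraspanins (rows) on the 12 arrays (columns, grouped by fraction), each as the log2 difference from that gene's mean over the 4 fractions; red is above and blue below it, with colours ending at 4 and -4. Tspan18, Tspan14 and Tspan7 head the plot, which is ordered by the mean of the 2 Flk1+ fractions minus that of the 2 Flk1- fractions, and Cd9 closes it.

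The plot of all members by array shows where each member was high or low. Highest mean levels fell in Eng+Flk1+ cells for 9 members, in Eng-Flk1+ cells for 8, in Eng+Flk1- cells for 4 and in Eng-Flk1- cells for 6. Over all tested genes these shares were 21.7%, 19.3%, 21.9% and 37.1%. The counts cover all 27 members, with Tspan14 among those highest in Eng+Flk1+ cells and Tspan7 among those highest in Eng-Flk1+ cells. Since the patterns of these 2 genes chose the family, the counts are a description and not a test. The spread was widest in Eng-Flk1- cells for 15 of the 27 members, and for 54.6% of all tested genes.

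Tspan7, an X-linked tetraspanin known from neurons, had levels of -0.14, 0.92 and -2.84 in Eng+Flk1+ cells. Its levels were 2.56, 1.93 and 2.63 in Eng-Flk1+ cells, -3.65, -0.75 and 0.40 in Eng+Flk1- cells, and -2.01, -4.34 and -4.13 in Eng-Flk1- cells. Its 3 Eng-Flk1+ arrays lay above all other arrays, and the other 3 fractions overlapped one another in part. The log2 fold change was 5.87 ± 1.17 (SE) for Eng-Flk1+ against Eng-Flk1- cells and 3.71 ± 1.17 against Eng+Flk1- cells, and Eng+Flk1+ against Eng-Flk1+ cells gave -3.06 ± 1.17 (n = 3 arrays a fraction). On slide 1 the difference between Eng-Flk1+ and Eng-Flk1- cells was 6.05, and on slide 2 that between Eng+Flk1+ and Eng-Flk1+ cells was -1.89. With slide as a block, the difference between Eng-Flk1+ and Eng+Flk1- cells, which share no slide, was 0.38 ± 2.00.

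Tspan14, a TspanC8 member, was not well above background on any of the 3 Eng-Flk1- arrays and was well above it on all 9 others. It had levels of 3.38, 1.10 and 2.65 in Eng+Flk1+ cells, 2.33, -0.14 and 2.10 in Eng-Flk1+ cells, and -1.90, 1.03 and 1.99 in Eng+Flk1- cells, against -6.09, -7.99 and -7.30 in Eng-Flk1- cells. The Eng-Flk1- arrays lay below all others, and the other 3 fractions overlapped. Its level was at least 246-fold higher in Eng+Flk1+ cells, 128-fold in Eng-Flk1+ cells and 61.4-fold in Eng+Flk1- cells than in Eng-Flk1- cells. Each bound sets the brighter fraction's mean against the lowest signal that counted as well above background on the Eng-Flk1- arrays, or the probe's own signal where that was higher. The bounds hold for the processed signal only: with normexp background correction (offset 50) the log2 differences between the means were 4.96, 4.12 and 3.20, smaller than these bounds. Single arrays also moved them by over 1.5 times. The bound for Eng+Flk1+ cells was 384-fold without their replicate 2, and that for Eng-Flk1+ cells was 220-fold without their replicate 2. For Eng+Flk1- cells it was 135-fold without their replicate 1 and 35.0-fold without their replicate 3. On slide 1, which held the 3 Eng-Flk1- arrays, the single Eng-Flk1+ array was 2.33 and the Eng-Flk1- mean -7.12. Only 1 probe carries the gene, so no second probe bears on this pattern.

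**Figure D2:**
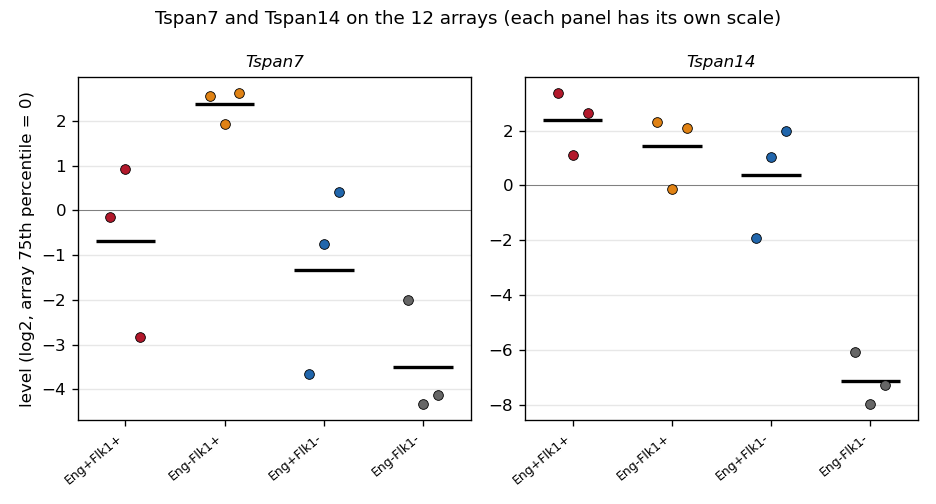
Levels of Tspan7 and Tspan14 (vertical axis, log2, array 75th percentile at 0) on the 12 arrays by fraction; points are arrays and bars the mean of 3. Tspan7 has its 3 highest arrays in Eng-Flk1+ cells, and Tspan14 its 3 lowest, between -6.09 and -7.99, in Eng-Flk1- cells.

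The other 5 TspanC8 members gave 0 calls. Tspan5 averaged 0.84 ± 0.90 (SD) in Eng+Flk1+ cells and 0.71 ± 0.31 in Eng-Flk1+ cells, against -1.54 ± 0.29 in Eng+Flk1- cells and 0.09 ± 2.72 in Eng-Flk1- cells. Both Flk1+ fractions lay above Eng+Flk1- cells on every array, and the Eng-Flk1- arrays ran from -1.95 to 3.19. Eng+Flk1+ against Eng+Flk1- cells gave a log2 fold change of 2.38 ± 1.08 (SE) with a limma adjusted p of 0.76. Tspan33, known from mouse red cell precursors, averaged -1.92 in Eng+Flk1+ cells, -1.24 in Eng-Flk1+ cells, -0.10 in Eng+Flk1- cells and -1.23 in Eng-Flk1- cells. Tspan15 stayed within -0.93 to -1.23 over the 4 fraction means. Tspan17 means ran from -0.55 to 0.36, and those of Tspan10 from -1.65 to -0.65. Tspan10 had an SD of 0.60 in Eng+Flk1+ cells and 0.21 in Eng+Flk1- cells, and SDs of 0.03 in both Eng-Flk1+ and Eng-Flk1- cells, whose values did not overlap (log2 fold change -0.998 ± 0.392, limma adjusted p = 0.23).

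Adam10, the protease these members carry, averaged -1.58 in Eng+Flk1+ cells, -0.51 in Eng-Flk1+ cells and -2.41 in Eng+Flk1- cells, against -4.15 in Eng-Flk1- cells. Eng-Flk1+ against Eng-Flk1- cells gave a log2 fold change of 3.64 ± 0.97 (SE), with a limma adjusted p of 0.0984.

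Tspan18 levels were 2.58, 2.56 and 3.61 in Eng+Flk1+ cells and 2.25, 1.59 and 1.48 in Eng-Flk1+ cells. In Eng+Flk1- cells it had -7.03, -0.36 and -1.40, and in Eng-Flk1- cells -0.72, -4.39 and -5.63. All 6 Flk1+ arrays lay above all 6 Flk1- arrays, and the probe was well above background on 2 of 3 arrays in each Flk1- fraction. The log2 fold change of Eng+Flk1+ against Eng-Flk1- cells was 6.50 ± 1.62 (SE; limma adjusted p = 0.0730), and of Eng+Flk1+ against Eng+Flk1- cells 5.85 ± 1.62 (adjusted p = 0.278). Eng-Flk1+ against Eng-Flk1- cells gave 5.35 ± 1.62 (adjusted p = 0.140), and against Eng+Flk1- cells 4.70 ± 1.62 (adjusted p = 0.605).

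Leaving out either of 2 arrays moved the Tspan18 calls. Without Eng+Flk1- replicate 1, the lowest of the 12, the limma adjusted p for Eng+Flk1+ against Eng-Flk1- cells was 0.0153 and for Eng-Flk1+ against Eng-Flk1- cells 0.0392. That array is in none of the fractions compared, so both folds stayed as they were and only the shared spread changed. Without Eng-Flk1- replicate 1, Eng+Flk1+ against Eng-Flk1- cells gave 7.93 on the log2 scale with an adjusted p of 0.0319. Over all alternatives tried, the limma adjusted p of Eng+Flk1+ against Eng-Flk1- cells ran from 0.0147 to 0.980. The size moved as well, and that log2 fold change ran from 3.84 to 7.93. Against Eng+Flk1- cells it ran from 2.52 to 7.14 for Eng+Flk1+ and from 1.28 to 5.99 for Eng-Flk1+ cells. Within slide 3 the Eng+Flk1+ array was at 3.61 and the Eng+Flk1- mean at -2.93, and within slide 1 the difference between Eng-Flk1+ and Eng-Flk1- cells was 5.83. In the fit without the 3 Eng-Flk1- arrays, Eng+Flk1+ against Eng+Flk1- cells kept 5.85 with an adjusted p of 0.174. With slide as a block, Eng+Flk1+ against Eng-Flk1- cells gave 6.87 ± 3.34 (SE).

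**Figure D3:**
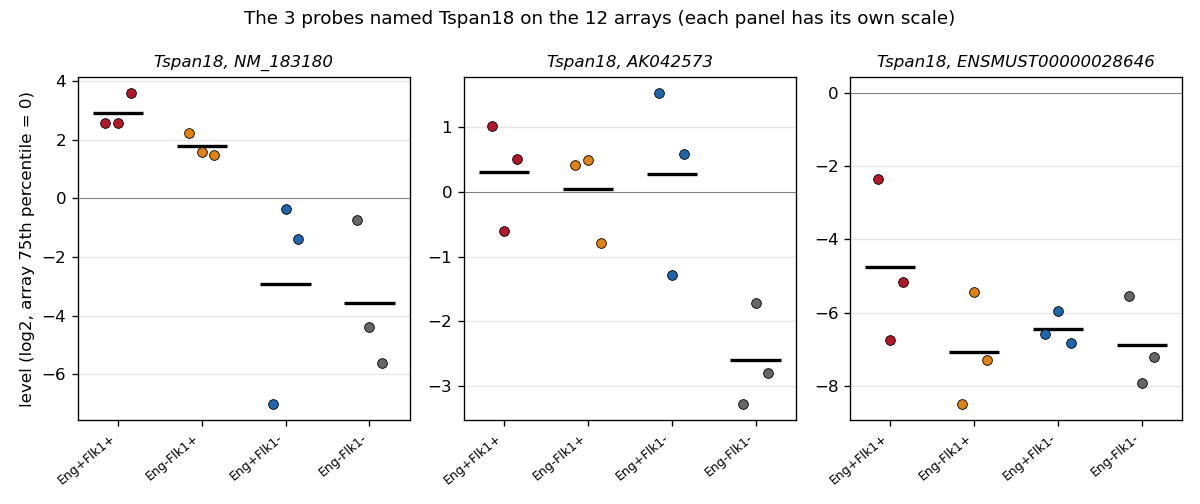
Levels of the 3 Tspan18 probes (one panel each, vertical axis in log2, array 75th percentile at 0) on the 12 arrays by fraction; points are arrays and bars means of 3. The probe for NM_183180 separates Flk1+ from Flk1- arrays, while the probe for AK042573 has Eng+Flk1- means close to those of the Flk1+ fractions.

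The second Tspan18 probe, for AK042573, averaged 0.31 ± 0.83 (SD) in Eng+Flk1+ cells, 0.04 ± 0.72 in Eng-Flk1+ cells and 0.28 ± 1.44 in Eng+Flk1- cells, against -2.60 ± 0.80 in Eng-Flk1- cells. It was well above background on all 12 arrays, and only its Eng-Flk1- arrays lay apart from the rest. The third probe was well above background on 3 arrays. The separation of both Flk1+ fractions from Eng+Flk1- cells was therefore measured by 1 probe of 3, and a low Eng-Flk1- mean by both bright probes.

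Endothelial markers moved with Tspan18 and Tspan8 in part. All 8 markers of that list were tested, and 3 of them (Tie1, Tek and Cdh5) rose in Eng+Flk1+ cells against both Eng+Flk1- and Eng-Flk1- cells. The summed signal of the 8, in units of the array's 75th percentile, was 29.6 to 51.9 in Eng+Flk1+ cells and 5.53 to 11.7 in Eng-Flk1+ cells, against 3.03 to 4.14 in Eng+Flk1- cells and 2.92 to 7.74 in Eng-Flk1- cells. Tek, Tie1 and Cdh5 were each well above background on 1 of 3 Eng-Flk1- arrays. In whole fractions, fewer cells of a type and less RNA per cell cannot be told apart, and the part of endothelial cells in these levels was not tested.

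Tspan8, an epithelial tetraspanin also known from human tumours, had levels of -0.73, 0.01 and -0.47 in Eng+Flk1+ cells. It had -2.66, -1.67 and -1.74 in Eng-Flk1+ cells, -2.26, -2.47 and -1.95 in Eng+Flk1- cells, and -1.73, -2.72 and -1.67 in Eng-Flk1- cells. The 3 Eng+Flk1+ arrays lay above the 9 others, which overlapped one another. The log2 fold change was 1.63 ± 0.46 (SE) against Eng-Flk1+ cells, 1.83 ± 0.46 against Eng+Flk1- cells and 1.65 ± 0.46 against Eng-Flk1- cells. The limma adjusted p-values were 0.535, 0.212 and 0.109, and none of the alternatives tried brought any of the 3 under 0.05 (lowest 0.0790). The difference was 1.35 between Eng+Flk1+ and Eng-Flk1+ cells within slide 2 and 1.76 between Eng+Flk1+ and Eng+Flk1- cells within slide 3. In the comparison with Eng-Flk1- cells, which share no slide with Eng+Flk1+ cells, the fit with slide as a block gave 0.73 ± 0.88. Without the 3 Eng-Flk1- arrays the adjusted p was 0.287 against Eng-Flk1+ and 0.110 against Eng+Flk1- cells.

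Among the members that bind Igsf8, Ptgfrn and integrins, Cd9 had its highest mean in Eng+Flk1- and Cd81 in Eng+Flk1+ cells. Cd9, which oocytes need to fuse with sperm, had 0.26, 0.41 and -0.26 in Eng+Flk1+ cells, -0.50, -0.68 and -1.71 in Eng-Flk1+ cells, 1.85, 1.50 and 1.84 in Eng+Flk1- cells, and 0.64, -0.88 and 1.91 in Eng-Flk1- cells. Its Eng+Flk1- arrays lay above both Flk1+ fractions, and the Eng-Flk1- arrays ran from -0.88 to 1.91. Eng-Flk1+ against Eng+Flk1- cells gave a log2 fold change of -2.69 ± 0.65 (SE; limma adjusted p = 0.251), and Eng+Flk1+ against Eng+Flk1- cells -1.60 ± 0.65 (adjusted p = 0.687).

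Leaving out the 3 Eng-Flk1- arrays kept the fold of Cd9 between Eng-Flk1+ and Eng+Flk1- cells and gave an SE of 0.41 and an adjusted p of 0.0466. With array quality weights the adjusted p was 0.0159, and over all alternatives it ran up to 1.00. Within slide 3 the difference between Eng+Flk1+ and Eng+Flk1- cells was -1.99. A second probe named Cd9, for AK080546, lies on the plus strand, opposite to the minus strand of the probe used. It was well above background on only 1 array, and whether it measures Cd9 RNA was not settled. With the mean of both probes the log2 fold change of Eng-Flk1+ against Eng+Flk1- cells was -0.63. With slide as a block it was -3.52 ± 1.31 (SE).

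Trophoblast markers were highest in the same Eng+Flk1- cells. All 6 were tested, and their summed signal was 4.76 to 9.89 in Eng+Flk1+ cells, 3.26 to 7.48 in Eng-Flk1+ cells, 18.7 to 22.0 in Eng+Flk1- cells and 3.30 to 6.34 in Eng-Flk1- cells. Elf5, a trophoblast transcription factor, fell in both Flk1+ fractions against Eng+Flk1- cells, with log2 fold changes of -4.15 in Eng+Flk1+ and -4.54 in Eng-Flk1+ cells (limma adjusted p = 0.00761 and 0.00603). All 6 markers were well above background on at least 2 of 3 arrays in each fraction. Their part in the Cd9 levels was not tested.

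Cd81 had 1.24, 1.53 and 1.87 in Eng+Flk1+ cells, 0.20, 1.00 and 0.47 in Eng-Flk1+ cells, 0.68, -0.42 and -0.78 in Eng+Flk1- cells, and 0.17, -5.85 and -3.63 in Eng-Flk1- cells. The Eng-Flk1- arrays disagreed among themselves: replicate 1 lay within the range of the Eng+Flk1- arrays, and the other 2 lay below every other array. Eng+Flk1+ against Eng-Flk1- cells gave a log2 fold change of 4.65 ± 1.18 (SE; limma adjusted p = 0.0771). Without Eng-Flk1- replicate 1 it was 6.29 ± 0.70 (adjusted p = 0.00207), and Eng-Flk1+ and Eng+Flk1- against Eng-Flk1- cells then gave 5.30 and 4.57 (adjusted p = 0.00518 and 0.0110). Over all alternatives the adjusted p for Eng+Flk1+ against Eng-Flk1- cells ran from 0.00207 to 0.989. Within slide 1, Eng-Flk1+ minus Eng-Flk1- was 3.30, and with slide as a block Eng+Flk1+ against Eng-Flk1- cells gave 3.96 ± 2.44 (SE).

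Cd82, known as a suppressor of metastasis in human tumours, was highest in Eng-Flk1- cells. It had 0.96, 0.67 and 0.63 in Eng+Flk1+ cells, 0.27, 0.28 and 0.42 in Eng-Flk1+ cells, and 0.48, 0.66 and 0.21 in Eng+Flk1- cells, against 1.27, 1.70 and 2.65 in Eng-Flk1- cells. The 3 Eng-Flk1- arrays lay above the 9 others. The log2 fold change was -1.12 ± 0.42 (SE) for Eng+Flk1+, -1.55 ± 0.42 for Eng-Flk1+ and -1.42 ± 0.42 for Eng+Flk1- against Eng-Flk1- cells, with limma adjusted p-values of 0.233, 0.104 and 0.150. Within slide 1, Eng-Flk1+ minus Eng-Flk1- was -1.60, and with slide as a block Eng+Flk1- against Eng-Flk1- cells gave -1.32 ± 1.10 (SE).

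Visceral endoderm markers were also highest in Eng-Flk1- cells. Of 8 listed, 7 were tested, and 5 fell in Eng+Flk1+ against Eng-Flk1- cells. The summed signal was 2.09 to 2.98 in Eng+Flk1+ cells, 1.98 to 4.41 in Eng-Flk1+ cells and 3.54 to 4.47 in Eng+Flk1- cells, against 36.1 to 188 in Eng-Flk1- cells. Afp was not well above background on any Eng-Flk1- array. Epiblast and primitive erythroid markers had their highest summed signals in the same fraction. A sum weighs the brightest genes most, and the mean log2 levels of both lists overlapped between Eng-Flk1- and Eng+Flk1- arrays. Epiblast means were 0.21 to 0.81 in Eng-Flk1- and -0.21 to 0.49 in Eng+Flk1- cells. Primitive erythroid means were -0.80 to 0.28 and -0.93 to 0.25. Neither list had a call between these 2 fractions. The 6 epiblast markers summed to 7.84 to 10.96 in Eng+Flk1+ cells, 7.46 to 12.7 in Eng-Flk1+ cells and 17.3 to 22.8 in Eng+Flk1- cells, against 30.8 to 99.8 in Eng-Flk1- cells. Of these, 1 (Pou5f1, a pluripotency factor) fell in both Flk1+ fractions against Eng-Flk1- cells. The 7 primitive erythroid markers summed to 1.37 to 3.81 in Eng+Flk1+ cells, 1.89 to 2.26 in Eng-Flk1+ cells and 7.79 to 15.9 in Eng+Flk1- cells, against 25.5 to 40.8 in Eng-Flk1- cells. Here 1 (Hbb-bh1, an embryonic globin) fell in both Flk1+ fractions against Eng-Flk1- cells, and in Eng+Flk1+ against Eng+Flk1- cells. The part of these 3 cell types in the levels of Cd82, Tspan32, Tspan14 and Cd81 was not tested.

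**Figure D4:**
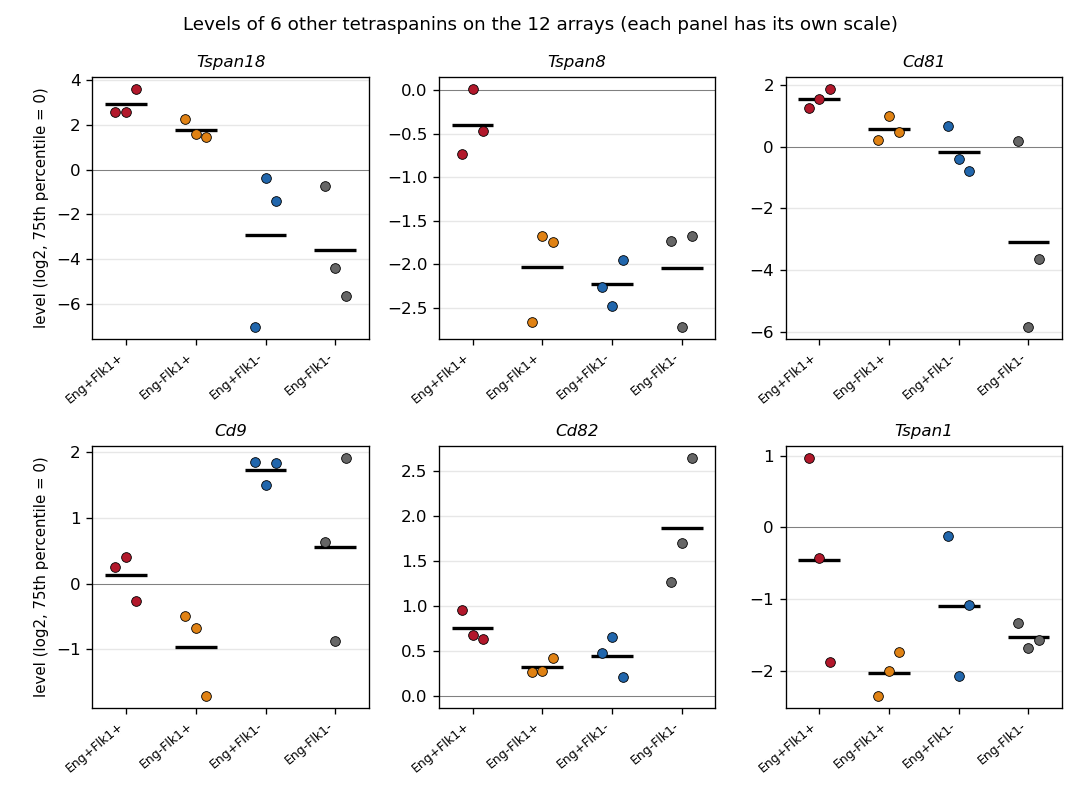
Levels of 6 tetraspanins (one panel each, vertical axis in log2, array 75th percentile at 0, own scale per panel) on the 12 arrays by fraction; points are arrays and bars means of 3. Tspan18 is high in both Flk1+ fractions, Tspan8 and Cd81 peak in Eng+Flk1+ cells, Cd9 in Eng+Flk1- cells and Cd82 in Eng-Flk1- cells, and Tspan1 overlaps between fractions.

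Cd63, the endosomal member, had levels of 2.49 to 3.73 in Eng+Flk1+ cells and 2.86 to 4.47 in Eng-Flk1+ cells, all below those of 5.04 to 5.27 in Eng+Flk1- cells. Its Eng-Flk1- arrays ran from -0.79 to 4.99, and no comparison passed the test (Eng+Flk1+ against Eng+Flk1- cells -2.03 ± 1.19, limma adjusted p = 0.96). Cd151 averaged -1.35 in Eng+Flk1+ cells, -0.18 in Eng-Flk1+ cells, -0.86 in Eng+Flk1- cells and -0.55 in Eng-Flk1- cells, and all 4 fractions overlapped.

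Tspan12 was near background. It was well above it on all 3 Eng-Flk1+ arrays, at -5.36 to -4.78, and on 1 of 3 arrays in each other fraction. Its log2 fold change of Eng-Flk1+ against Eng+Flk1- cells was 1.77 ± 0.79 (SE; limma adjusted p = 0.92). Its signalling partners Fzd4, Lrp5 and Ndp gave 0 calls in any comparison.

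The 3 members known from leukocytes, Cd37, Cd53 and Tspan32, were not called. Cd53 was dim, at -6.27 to -5.03 in Eng+Flk1+ cells, -6.22 to -5.87 in Eng-Flk1+ cells, -4.99 to -4.15 in Eng+Flk1- cells and -5.92 to -3.69 in Eng-Flk1- cells, and was well above background on 0 of 3 Eng-Flk1+ arrays and 3 of 3 Eng+Flk1- arrays. Its mean was -6.09 in Eng-Flk1+ cells and -4.69 in Eng+Flk1- cells, a level 2.63-fold higher in Eng+Flk1- cells (limma adjusted p = 0.845). This fold is the plain difference of the means and not a lower bound. Tspan32 averaged 0.55 in Eng+Flk1+ cells, 0.33 in Eng-Flk1+ cells and 0.70 in Eng+Flk1- cells, against 1.81 in Eng-Flk1- cells, whose 3 arrays lay above the 9 others. Its log2 fold change of Eng-Flk1+ against Eng-Flk1- cells was -1.47 ± 0.52 (SE; limma adjusted p = 0.198), and a second Tspan32 probe, well above background on 5 arrays, did not repeat this order. Cd37 had overlapping levels in the 4 fractions and a highest single value of 3.14 on Eng-Flk1- replicate 3. The 6 leukocyte markers had mean levels of -2.60 in Eng+Flk1+ cells, -3.17 in Eng-Flk1+ cells, -2.80 in Eng+Flk1- cells and -2.91 in Eng-Flk1- cells and 0 calls in any comparison, with each of the 6 well above background on all 12 arrays.

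Of the remaining members, Tspan1 had 0.97, -0.43 and -1.88 in Eng+Flk1+ cells, against -2.35, -2.00 and -1.73 in Eng-Flk1+ cells. Between these fractions, which overlapped, the log2 fold change was 1.58 ± 0.70 (SE; limma adjusted p = 0.999), and within slide 2 the difference was 2.13. It had -0.12, -2.07 and -1.09 in Eng+Flk1- cells and -1.33, -1.68 and -1.57 in Eng-Flk1- cells. Tspan4, known from the migrasomes of moving cells, averaged -1.56 in Eng+Flk1+ cells and -1.55 in Eng-Flk1+ cells, -2.26 in Eng+Flk1- cells and -3.94 in Eng-Flk1- cells. Its log2 fold change of Eng+Flk1+ against Eng-Flk1- cells was 2.38 ± 0.97 (SE; limma adjusted p = 0.28).

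Tspan9, known from platelets, averaged -0.49 in Eng+Flk1+ cells and -2.47 in Eng-Flk1+ cells, -2.30 in Eng+Flk1- cells and -2.62 in Eng-Flk1- cells, with SDs of 1.49 to 1.59 and overlap throughout. Between Eng+Flk1+ and Eng-Flk1+ cells the difference was 1.98 on this probe. On a second Tspan9 probe, well above background on 8 arrays, it was -1.03. Tspan6 averaged 1.84 in Eng+Flk1+ cells and 2.48 in Eng-Flk1+ cells, 0.05 in Eng+Flk1- cells and -0.06 in Eng-Flk1- cells, again with overlap. Tspan3 averaged 0.98 in Eng+Flk1+ cells, 1.72 in Eng-Flk1+ cells, 0.54 in Eng+Flk1- cells and -0.31 in Eng-Flk1- cells, and its Eng-Flk1- arrays ran from -4.16 to 1.94. Tspan31, a neighbour of Cdk4 in the genome, had fraction means between 1.81 and 2.41. Tspan2 means lay between -2.50 and -1.98, those of Tspan11 between -2.96 and -2.15, and those of Tspan13, a dim probe, between -4.67 and -3.55.

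**Figure D5:**
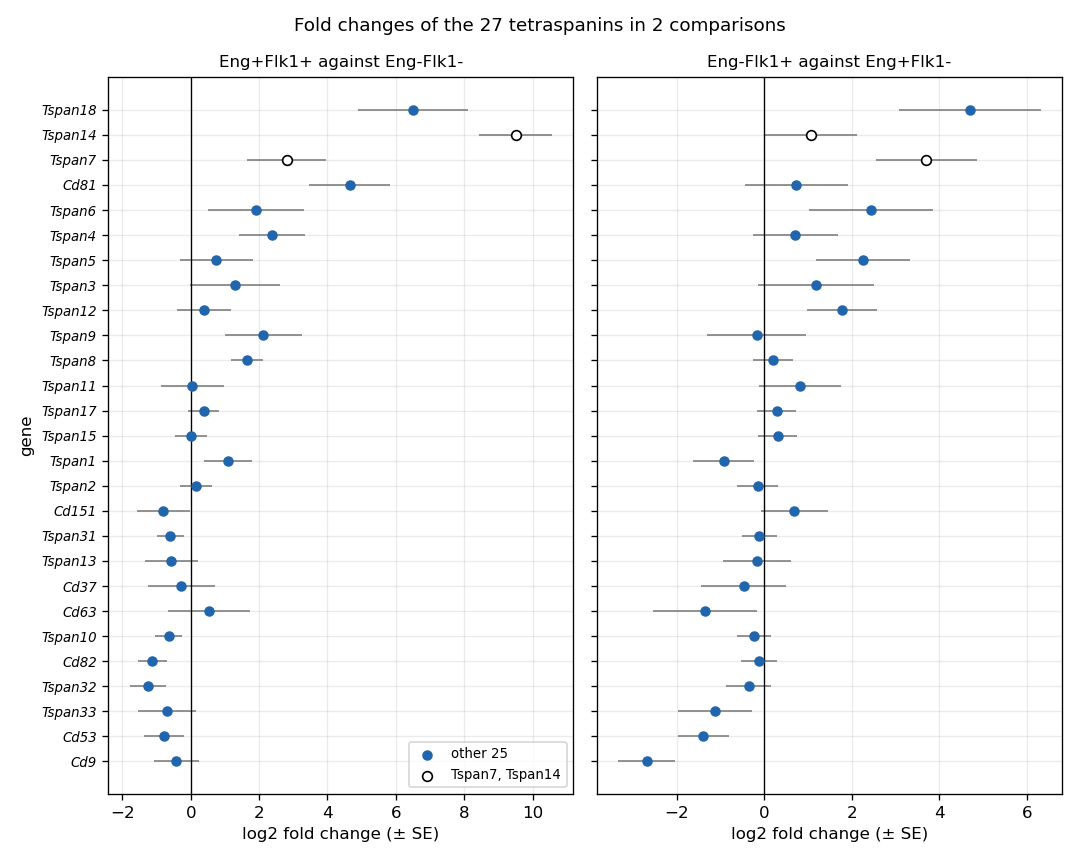
Log2 fold changes (horizontal axis, points) with standard errors (lines) of the 27 tetraspanins (rows, ordered as in the plot by array) for Eng+Flk1+ against Eng-Flk1- and for Eng-Flk1+ against Eng+Flk1- cells. Tspan18 lies at 6.50 and 4.70, Cd9 at -0.42 and -2.69, and most other members lie within 2 of 0.

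Members whose arrays did not overlap between fractions were also counted. Between Eng+Flk1+ and Eng+Flk1- cells, 9 of the 25 did not overlap (Cd53, Cd63, Cd81, Cd9, Tspan17, Tspan18, Tspan33, Tspan5 and Tspan8), where 15.2% of all tested genes did not. Between Eng+Flk1+ and Eng-Flk1+ cells there were 6 of the 25 (13.8% of genes), and between Eng-Flk1+ and Eng+Flk1- cells 7 (15.7%). Against Eng-Flk1- cells, the count was 7 for Eng+Flk1+ (18.1%), 8 for Eng-Flk1+ (22.1%) and 5 for Eng+Flk1- cells (19.0%). These counts use the probe of highest mean level for each gene. Between Eng+Flk1+ and Eng+Flk1- cells, the further probes of Tspan33, Tspan18 and Cd9 did not repeat the separation. The difference was -0.02 on the second Tspan33 probe, 0.03 on the second Tspan18 probe and 0.60 on the dim second Cd9 probe. The counts include members measured on a few arrays only, and no test was made of the counts.

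The interaction of Endoglin and Flk1, which asks whether the difference between Eng+ and Eng- cells depends on Flk1, called 0 of the 25 members by limma and 0.273% of all genes. An unadjusted p under 0.05 was reached by 2 of the 25 (Cd82 and Tspan8) and by 10.5% of all genes. Lowest among the 25 was Cd82, with an interaction of 1.85 ± 0.59 (SE) on the log2 scale and a limma adjusted p of 0.293.

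The partners of the family were read for comparison. All 18 listed were tested, and Epcam, an epithelial adhesion protein that binds tetraspanins, was the single call. It fell in Eng+Flk1+ against Eng-Flk1- cells, with a log2 fold change of -4.17 ± 0.89 (SE), means of -1.33 and 2.84 and a limma adjusted p of 0.0384. That call was lost on leaving out Eng-Flk1- replicate 1 or 2, Eng+Flk1+ replicate 1 or 3, or any of the 3 Eng+Flk1- arrays, with adjusted p-values of 0.0587 to 0.130 and folds of -3.45 to -4.24. It passed in 10 of 22 alternatives, with adjusted p-values of 0.0173 to 0.550 over all of them. Epcam averaged 3.48 in Eng+Flk1- cells, and Cldn7, a claudin that binds it, averaged -1.71 in Eng+Flk1+ cells and -2.50 in Eng-Flk1+ cells, against 2.05 in Eng+Flk1- cells and 1.13 in Eng-Flk1- cells. Ptgfrn averaged 0.88 in Eng+Flk1+ cells, 1.38 in Eng-Flk1+ cells and 1.59 in Eng+Flk1- cells, against -0.49 in Eng-Flk1- cells (Eng+Flk1- against Eng-Flk1- cells 2.08 ± 0.45, adjusted p = 0.0517). The medians of the 18 partners were -0.60 for Eng+Flk1+ against Eng-Flk1- cells and -0.15 against Eng+Flk1- cells, beside -0.06 and -0.01 over all genes. For Eng-Flk1+ cells they were -0.54 against Eng-Flk1- (beside -0.13) and -0.29 against Eng+Flk1- cells (beside -0.09). The median was above 0 for Eng+Flk1- against Eng-Flk1- cells (0.44 beside -0.06) and for Eng+Flk1+ against Eng-Flk1+ cells (0.12 beside 0.10). Of the tetraspanins outside the naming rule, Upk1a and Prph2 were tested with 0 calls, Upk1b was too dim to test, and Rom1 was not analysed here.

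Several members had more than 1 probe, and these did not always repeat the order of the fractions. The 11 such genes had 12 further probes, and on all 12 arrays 6 of these were well above background. For those 6 the sign of the difference matched that of the probe used in 25 of 36 comparisons. The pairs of Tspan6 and Tspan3 had the same sign in 5 and 4 of 6 comparisons, and that of Tspan1 in 3. All further probes together matched in 45 of 72 comparisons, and 6 of them were well above background on 1 to 9 arrays. These include the probe named Cd9 on the opposite strand, which matched in 0 of 6.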

How the data were processed

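RNA of 12 sorted samples was measured on 1-colour Agilent arrays; the scans were quantified in Agilent Feature Extraction (10.5.1.1), per the file headers. The authors deposited the processed signal as intensity per spot, background-subtracted and not scaled between arrays, with flags per spot. Their table holds a ratio, the same signal divided by the array's median (every column median is 1), as the deposited values show. The labels name GeneSpring GX without its settings. A further 12 columns of per-sample values were not used.

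Control spots (1639 per array) were left out and outlier spots set to missing, which left 171 missing values in 161 tested genes. Levels were log2 of the processed signal minus the array's 75th percentile. Probes were named through their accession or symbol in RefSeq. Of a gene's probes, that of highest mean level was used, and a gene was tested where 1 fraction or more had it well above background on all 3 arrays. Group means were fitted with limma version 3.58.1 in R version 4.3.3 over all 12 arrays, with Benjamini-Hochberg adjustment over 22720 genes at 0.05, checked on simulated data. The number of arrays limits the precision.

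Members and lists were chosen with earlier results of these data known. Values on each array are given for Tspan7, Tspan14 and the 3 members of lowest p in each comparison. The main fit did not pair samples by the labels' replicate numbers. Deviations of same-numbered arrays correlated at -0.107 to 0.188, and those of differently numbered arrays at -0.148 to 0.114. The highest, 0.188, was between replicates 2 of Eng-Flk1+ and Eng+Flk1+ cells. Such correlations cannot exclude a pairing, and a replicate block was tried as an alternative. The 23 alternatives changed background correction, scaling, filter, probe choice, blocks, weights or the arrays included.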

Additional observations from a re-analysis of the deposited data

How the results depend on the processing

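All 483 fold changes recomputed for 22 named comparisons kept their direction, but many of them could not change. Leaving out an array outside the comparison, changing the filter, adding the replicate block or changing only the spread model leaves a fold as it was. Most of the folds followed were also chosen for a low p in these same data. The counts of called members cover all 27, with Tspan7 and Tspan14, whose patterns chose the family, and are a description. With normexp background correction the count of called members was 0 for Eng+Flk1- and 1 for Eng-Flk1+ against Eng-Flk1- cells (1 and 2 as reported), 3 for Eng+Flk1+ against Eng-Flk1- cells and 1 against Eng+Flk1- cells (1 and 0 as reported), with Cd81 and Tspan18 added. Requiring all 12 arrays above background, which drops Tspan14, gave 0, 1 and 0 for Eng+Flk1-, Eng-Flk1+ and Eng+Flk1+ against Eng-Flk1- cells. Slide as a block gave 0 in every comparison, and 12 and 16 called genes in all for Eng+Flk1+ against Eng+Flk1- and Eng-Flk1+ against Eng-Flk1- cells. The cause was not tested. The replicate block gave 1 for Eng-Flk1+ against Eng-Flk1- cells and changed no other count of called members. The mean of all probes gave 2 for Eng+Flk1+ against Eng-Flk1- cells, array weights 1 for Eng-Flk1+ against Eng-Flk1- and 1 for Eng-Flk1+ against Eng+Flk1- cells (Cd9), and leaving out the 3 Eng-Flk1- arrays 1 for Eng-Flk1+ against Eng+Flk1- cells. Leaving out 1 array gave 1 to 2 for Eng+Flk1-, 1 to 3 for Eng-Flk1+ and 1 to 3 for Eng+Flk1+ against Eng-Flk1- cells, and 0 in the other comparisons. The authors' scaling to the median moved the median of all genes to -0.66, -0.73 and -0.63 for Eng+Flk1+, Eng-Flk1+ and Eng+Flk1- against Eng-Flk1- cells, where they were -0.06, -0.13 and -0.06 as reported. Leaving out 1 array, the number of genes called ran from 258 to 1022 for Eng+Flk1+, 166 to 994 for Eng-Flk1+ and 143 to 844 for Eng+Flk1- against Eng-Flk1- cells (537, 435 and 329 as reported). Those 3 counts were 287, 247 and 144 with normexp, 258, 198 and 163 with all 12 arrays above background, and 172, 162 and 102 with array weights. For Eng+Flk1+ against Eng+Flk1- cells (67 genes as reported) array weights gave 210, leaving out the 3 Eng-Flk1- arrays 129, the mean of all probes 119 and the replicate block 23. For Eng-Flk1+ against Eng+Flk1- cells (23 as reported) the same settings gave 236, 73, 36 and 10.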
